A study of Mus musculus with 18 samples.

Results

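The Bcl2 family genes described here are Bcl2, Bcl2l1, Mcl1, Bax, Bak1, Bcl2l11, Bbc3, Pmaip1, Bid and Bad. They were taken by gene symbol from the table of expression values: 10 symbols of 36655, each on 1 entry, read in all 18 libraries. The libraries came from C57BL/6 mice built wholly from induced pluripotent stem (iPS) cells. In every group, controls included, the cells carried 4 reprogramming factors under doxycycline control: Oct4 (Pou5f1), Sox2, Klf4 and c-Myc. Doxycycline starts reprogramming towards iPS cells, and the study followed its first days. Haematopoietic stem cells were of a long-term kind (LT-HSC) and a short-term kind (ST-HSC). They and myeloid progenitors (MP) each gave 5 libraries. These were taken from uncultured cells (0), after 2 or 4 days without doxycycline (2N, 4N) and after 2 or 4 days with it (2D, 4D). The 3 fibroblast libraries were 0, 2D and 4D, with no culture control. For all 6 N libraries the labels' doxycycline entry is Yes, against the design text; the titles were followed. Each blood library came from 25 cells picked by hand and amplified, and each fibroblast library from bulk RNA by another route, so lineage and library method cannot be told apart. Each condition was 1 library, with no replicates, and p-values below rest on how far cell types and days differ among themselves.

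Bcl2 family proteins decide whether mitochondria release the factors that start cell death. Bcl2, Bcl2l1 (whose main product is Bcl-xL) and Mcl1 hold the effectors Bax and Bak1 in check, and Bax and Bak1 make pores in the outer mitochondrial membrane once freed. BH3-only proteins carry the death signal: Bcl2l11 (Bim), Bbc3 (Puma), Pmaip1 (Noxa), Bid and Bad bind the survival proteins, and some of them also activate Bax and Bak1. Mcl1 is needed for the survival of haematopoietic stem cells, and cytokine signalling is known to sustain survival genes in blood progenitors. Values here are levels of RNA per gene, which separate neither the splice forms of a gene nor active from inactive protein.

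Of the 10 genes, Bcl2l1 and Bid were lower and Bcl2l11 higher in D than in matched N cultures. The upstream sequences of these 3 genes are shown because they are the members that passed the test of D against N described below. Each is the 250 bases before the start of transcription that lies farthest upstream in the RefSeq table (GRCm38.p6), on the gene's strand, 5′ to 3′. Capitals mark matches, searched on both strands, to 4 motifs: GTAAACA (bound by FOXO factors), GGGCGG (the GC box), CACGTG (an E-box) and TTCNNNGAA (bound by STAT factors). No matches overlap in these 3 stretches. Bcl2l1 lies at chr2:152831729-152831978 (minus strand), Bcl2l11 at chr2:128125788-128126037 (plus strand) and Bid at chr6:120916825-120917074 (minus strand).
Bcl2l1: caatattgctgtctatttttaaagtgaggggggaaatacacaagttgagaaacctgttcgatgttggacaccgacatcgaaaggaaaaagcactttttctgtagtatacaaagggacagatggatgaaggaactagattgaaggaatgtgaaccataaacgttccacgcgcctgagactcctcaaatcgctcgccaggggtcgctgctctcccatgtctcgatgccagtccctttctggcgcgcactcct
Bcl2l11: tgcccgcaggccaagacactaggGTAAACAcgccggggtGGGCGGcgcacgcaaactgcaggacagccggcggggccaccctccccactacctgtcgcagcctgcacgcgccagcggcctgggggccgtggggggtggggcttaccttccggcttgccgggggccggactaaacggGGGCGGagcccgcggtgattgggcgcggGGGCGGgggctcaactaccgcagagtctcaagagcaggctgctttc
Bid: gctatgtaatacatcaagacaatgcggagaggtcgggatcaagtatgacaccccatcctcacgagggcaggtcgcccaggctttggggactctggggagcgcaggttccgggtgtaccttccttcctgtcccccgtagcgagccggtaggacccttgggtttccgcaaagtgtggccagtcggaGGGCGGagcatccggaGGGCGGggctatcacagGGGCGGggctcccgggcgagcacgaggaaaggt
The Bcl2l11 stretch held GTAAACA at positions -227 to -221 relative to the start, a motif found in 3.17% of all 32851 RefSeq promoter windows of 250 bases, and 3 GC boxes. Over the members' promoters used, GTAAACA stood in 2 of 15, the other one at a start of Bbc3. The Bid stretch held 3 GC boxes, and the Bcl2l1 stretch held no match to any of the 4 motifs. For the members, 15 promoters of 9 of the 10 genes were used, with none for Pmaip1. GGGCGG stood in 10 of these 15 and in 32.7% of all windows. CACGTG stood in 2 of the 15, 1 of Bax and 1 of Bbc3, and in 6.02% of all windows. TTCNNNGAA stood in none of the 15 and in 7.02% of all windows. Bcl2l1 has 3 starts in the table and Bcl2l11 has 2. The libraries do not show which start was used, and a match is a description of the letters only.

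Values are FPKM (sequenced fragments scaled to transcript length and to library size). Read depth is unknown. Total FPKM was 677649 to 767866 in blood libraries, with 10478 to 11365 genes at 1 or more, and 524225 to 572069 in fibroblasts, with 11833 to 12425 such genes. Genes that every cell uses, such as Gapdh and Rpl3, were listed at 0 in some libraries, so a member at 0 is only listed there. Of the 4 factors, Sox2 followed the D label in blood cells, at 0 to 1.496 FPKM in N and 15.6 to 61.3 in D. Pou5f1 was listed at 0 in all N libraries and in 3 of 6 D libraries, and reached 2.34 in D. Klf4 overlapped, at 0 to 22.6 FPKM in N and 0.704 to 11.2 in D, and so did Myc, at 101.6 to 318.5 in N and 45.5 to 189 in D. Several libraries went against their labels. Summed over 7 blood cell markers, the level was 2580 to 4777 FPKM in N. In D it was 2796 and 2270 in ST-HSC at days 2 and 4, 288.5 and 27.64 in LT-HSC, and 240.3 and 6.074 in MP. Ptprc, the pan-leukocyte gene CD45, was listed at 0 in LT-HSC 4D and MP 4D. Summed over 9 neural genes such as Stmn2 and Mobp, a list chosen after their values were seen, the level was 9.18 to 40.0 FPKM in N and 225 to 1603 in D. The 9 granulocyte-monocyte markers summed to 42700 FPKM in uncultured LT-HSC, near the 59660 of uncultured MP and against 1631 in uncultured ST-HSC. They summed to 150.8 to 35140 FPKM in N and 1.84 to 141.8 in D, where Cebpe and Fcgr3 were at 0 throughout. Fibroblast markers summed to 606.4 FPKM or more in fibroblasts and to at most 33.44 in D, with Dcn and Lum at 0 in all 6. The neural and granulocyte-monocyte sums moved with the D label, as did the blood cell sums of LT-HSC and MP. In ST-HSC the blood cell sum was 2838 FPKM in 2N and 4070 in 4N, beside the D values above. The fibroblast sums overlapped, at 7.55 to 25.4 FPKM in N and 0 to 33.44 in D. The part of all these markers in the results below was not tested. In libraries of this kind, fewer cells of a type and less RNA per cell cannot be told apart.

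Differences are on the log2(FPKM + 1) scale, which understates changes of low genes. D was compared with N in 6 pairs of the same cell type and day by limma, with p adjusted over all 12254 genes tested and a threshold of 0.05. All 10 members had the mean of at least 1 FPKM that was needed. In D, 1 of 10 members was higher, against 4.53% of all genes tested, and 2 were lower, against 4.44%. The median difference of the 10 was -0.75, beside 0.02 for all genes tested. In 2 of 10 members, Bcl2l1 and Bak1, all 6 D libraries lay below all 6 N libraries (2.12% of all genes), and in none did all D lie above all N (2.97%). At an unadjusted p under 0.05 there were 5 members, beside 24% of all genes.

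**Figure D1:**
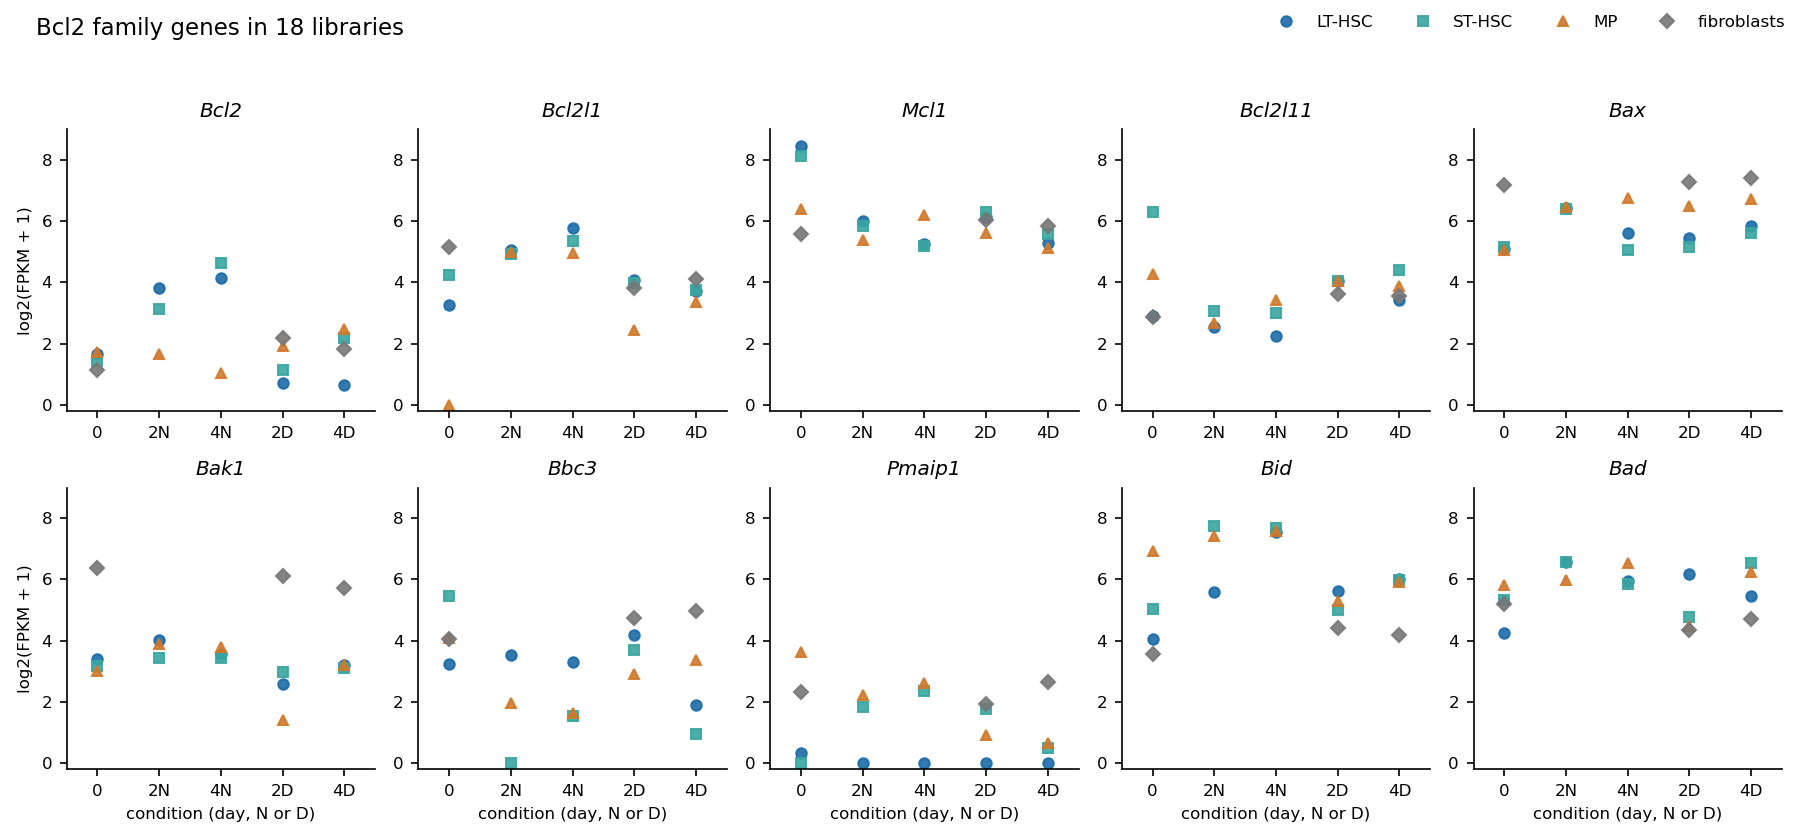
Levels of the 10 genes in all 18 libraries, on the log2(FPKM + 1) scale, against condition (0, 2N, 4N, 2D, 4D). Each point is 1 library and each marker shape a cell type. Bcl2l1 stands at 29.5 to 53.8 FPKM in N and at 4.43 to 15.9 in D, and Mcl1 is highest in uncultured LT-HSC (355 FPKM) and ST-HSC (279.5).

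Bcl2l1 was the survival gene that differed between D and N. In N its level was 32.4 FPKM in LT-HSC, 29.5 in ST-HSC and 30.8 in MP at day 2, and 53.8, 39.5 and 30.1 at day 4. In D it was 15.9, 14.8 and 4.43 FPKM at day 2, and 12.1, 12.4 and 9.18 at day 4. All 6 N libraries were above all 6 D libraries, and the lowest D library was MP at day 2. Bcl2l1 fell by 1.63 ± 0.293 on the log2 scale (SE; 95% interval -2.28 to -0.971; adjusted p = 0.00956), in 6 of 6 pairs. The 6 differences ran from -2.55 in MP at day 2 to -0.944 in ST-HSC at day 2. Without the day 4 pairs of LT-HSC and MP, whose D libraries list Ptprc at 0, the difference was -1.52 (adjusted p = 0.0854). In the ST-HSC pairs alone, where blood cell markers but not granulocyte-monocyte markers were kept, it was -1.27 (adjusted p = 0.418). In uncultured cells, Bcl2l1 was at 8.63 FPKM in LT-HSC, at 18.1 in ST-HSC and listed at 0 in MP. It was thus higher in all 6 N libraries than in any uncultured library, a separation whose share over all genes was not computed. The limma difference was 2.67 ± 0.629 on the log2 scale (95% interval 1.28 to 4.06, adjusted p = 0.0288). That value rests in part on the 0 of uncultured MP: without MP the difference was 1.52 (adjusted p = 0.0834). The call was also lost without LT-HSC (2.93, adjusted p = 0.109) and without ST-HSC (3.56, adjusted p = 0.0794). The level in D did not pass the test against uncultured cells (1.04 ± 0.619, adjusted p = 0.267).

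Bcl2, the survival gene that gives the family its name, was at 1.73 to 2.28 FPKM in the 3 uncultured libraries. In N it was at 13.2 FPKM in LT-HSC and 7.86 in ST-HSC at day 2, at 16.6 and 23.8 at day 4, and at 2.14 and 1.07 in MP at days 2 and 4. In D it was at 0.656 and 1.21 FPKM in LT-HSC and ST-HSC at day 2, at 0.576 and 3.58 at day 4, and at 2.76 and 4.58 in MP. Every N library of the stem cells was thus above every other blood library, while MP gave lower values in N than in D. Across all 6 pairs the D minus N difference was -1.56 ± 0.66 (adjusted p = 0.183), lower in 4 of 6 pairs. It was -3.49 to -2 in the 4 stem cell pairs, and 0.262 and 1.43 in the MP pairs. The difference between MP and stem cells in this contrast was 3.61 ± 0.814 (95% interval 1.75 to 5.46) and did not pass adjustment (adjusted p = 0.366). Bcl2 was the only member at an unadjusted p under 0.05 in that interaction (8.31% of all genes were), where 0 members and 0% of all genes passed. In N against uncultured cells the difference was 1.46 ± 0.638 (adjusted p = 0.17), and without MP it was 2.38 and passed (adjusted p = 0.0498).

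Mcl1, a survival gene whose protein turns over fast, was at 355 FPKM in uncultured LT-HSC, 279.5 in ST-HSC and 83.3 in MP. In N it ranged from 35.8 to 72.1 FPKM with a median of 48.8, and in D from 33.6 to 77.2 with a median of 47.45. All 12 cultured libraries lay below the lowest uncultured one, narrowly so for ST-HSC 2D (77.2 FPKM against 83.3 in MP). The share of all genes that separate in this way was not computed. Mcl1 was lower than in uncultured cells both in N (-2.02 ± 0.436, adjusted p = 0.0217) and in D (-1.997 ± 0.393, adjusted p = 0.00985), each in 6 of 6 differences. These comparisons share the uncultured libraries. The change to N was -3.23 to -2.27 in the stem cells and -1.02 and -0.207 in MP. Without LT-HSC the value for N was -1.61 (adjusted p = 0.133) and without ST-HSC it was -1.73 (adjusted p = 0.188). The call for D was likewise lost without LT-HSC (adjusted p = 0.0969) or ST-HSC (adjusted p = 0.057). The D minus N difference was 0.02 ± 0.247 (95% interval -0.53 to 0.575; adjusted p = 0.972).

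The make-up of the 3 survival genes therefore differed between conditions, given here as each gene's share of their summed FPKM, with no test. Mcl1 held 93.4% to 97.3% in uncultured blood cells, 34.5% to 69.8% in N and 71.0% to 87.0% in D. Every D library was above every N library in this share, narrowly so for MP 4D (71.0%) against MP 4N (69.8%). The sum includes Bcl2l1, which was lower in D, while Mcl1 itself did not pass between D and N. Bcl2 enters the sum too. Its share in the stem cells was 8.32% to 24.0% in N and 0.759% to 5.71% in D. In MP it was 2.91% and 1.03% at 2N and 4N, and 4.99% and 9.67% at 2D and 4D. The separation of the Mcl1 share is thus not a result apart from the levels of Bcl2l1 and Bcl2. The share of all genes that separate in this way was not computed. Bcl2l1 held 0% to 6.04% in uncultured cells, 29.2% to 50.1% in N and 8.003% to 23.9% in D. In fibroblasts the Mcl1 share was 56.6% uncultured and 79.8% and 74.7% at 2D and 4D. Fibroblasts thus began inside the N range of the blood cells and ended inside the D range.

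**Figure D2:**
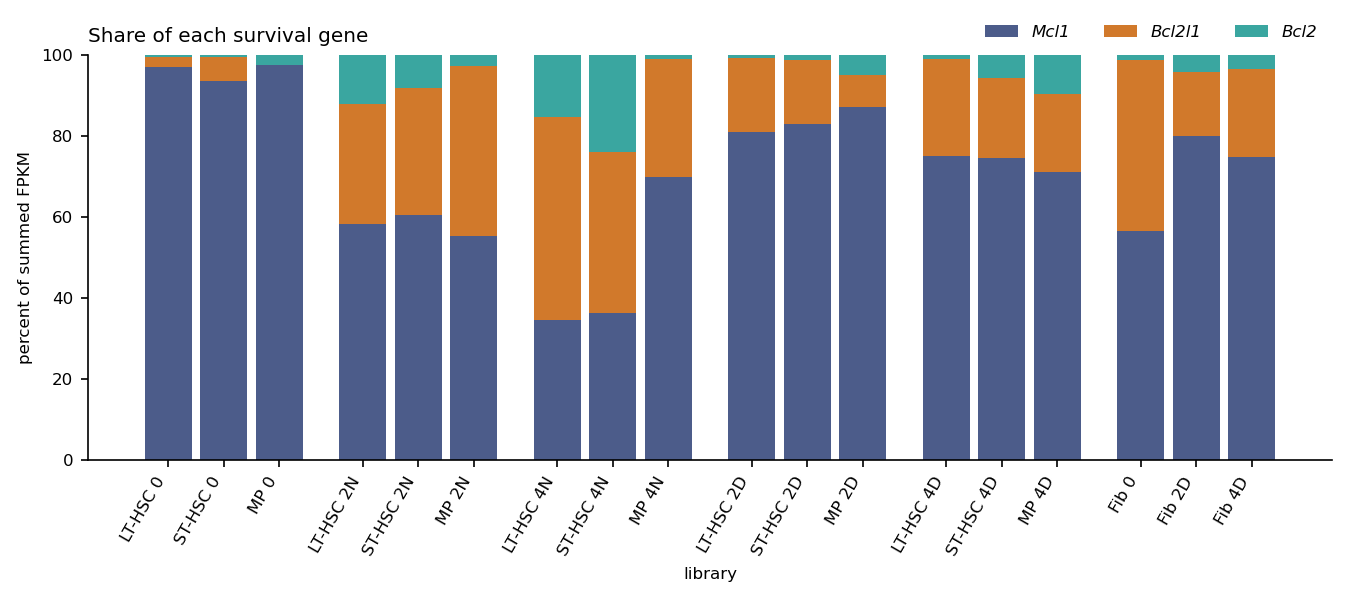
Share of Mcl1, Bcl2l1 and Bcl2 in their summed FPKM (percent), 1 stacked bar per library. The Mcl1 share is 93.4% to 97.3% in uncultured blood cells, 34.5% to 69.8% in N and 71.0% to 87.0% in D.

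Bak1, an effector anchored in the mitochondrial membrane, was at 15.1, 9.84 and 13.9 FPKM in LT-HSC, ST-HSC and MP at 2N and at 10.9, 9.71 and 12.9 at 4N. In D it was at 5.04, 6.77 and 1.66 FPKM at day 2 and at 8.12, 7.62 and 8.14 at day 4. All D libraries lay below all N libraries, but the difference of -0.95 ± 0.378 did not pass (95% interval -1.79 to -0.104; adjusted p = 0.157). The pair differences ran from -2.49 in MP at day 2 to -0.314 in ST-HSC at day 4. Bax, the effector that moves from the cytosol to mitochondria, was at 32.4 to 34.8 FPKM in uncultured blood cells, 32.6 to 107 in N and 34.7 to 105 in D. The N and D ranges overlapped almost whole, and the difference was -0.25 ± 0.274 (adjusted p = 0.647). Against uncultured cells, Bax was at 1.03 ± 0.376 in N (adjusted p = 0.112) and 0.78 ± 0.348 in D (adjusted p = 0.146), neither past the threshold. Relative to Bax, Bcl2l1 stood at 0.281 to 1.21 in N and at 0.0497 to 0.427 in D, as a ratio of FPKM. At day 2 the N and D ratios were 0.376 and 0.371 in LT-HSC, 0.351 and 0.427 in ST-HSC, and 0.351 and 0.0497 in MP. At day 4 they were 1.12 and 0.215, 1.21 and 0.255, and 0.281 and 0.0878.

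Among BH3-only genes, Bcl2l11 was the only member that passed as higher in D. Bim, its product, binds all the survival proteins and can activate Bax directly. In N it was at 4.79, 7.40 and 5.35 FPKM in LT-HSC, ST-HSC and MP at day 2 and at 3.72, 6.97 and 9.74 at day 4. In D it was at 15.7, 15.6 and 15.6 FPKM at day 2 and at 9.70, 20.04 and 13.8 at day 4. The groups overlapped only through MP 4N, which lay just above LT-HSC 4D. Bcl2l11 rose by 1.16 ± 0.297 on the log2 scale (95% interval 0.492 to 1.82; adjusted p = 0.0401), in 6 of 6 pairs, by 0.462 to 1.53. The call lies near the threshold: leaving out any 1 of the 6 pairs gave differences of 1.08 to 1.30 with adjusted p = 0.0601 to 0.115. Without the day 4 pairs of LT-HSC and MP it was 1.32 (adjusted p = 0.106), and in ST-HSC alone 1.19 (adjusted p = 0.501). Uncultured cells spanned both groups, at 6.50 FPKM in LT-HSC, 77.6 in ST-HSC and 18.3 in MP, and neither N (-1.67 ± 0.541, adjusted p = 0.0798) nor D (-0.51 ± 0.528, adjusted p = 0.52) passed against them. As a ratio of FPKM, Bcl2l11 to Bcl2l1 was 0.0691 to 0.323 in N and 0.803 to 3.52 in D. The ratio combines genes already called in these same libraries, so its separation is no further result. In uncultured cells it was 0.753 in LT-HSC and 4.29 in ST-HSC, and MP gave no ratio because Bcl2l1 was listed at 0.

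Bid, which is cut by caspase 8 and so links death receptors to mitochondria, was lower in D. In N it was at 47.0 FPKM in LT-HSC, 213 in ST-HSC and 172 in MP at day 2, and at 188, 205 and 189 at day 4. In D it was at 48.6, 31.0 and 38.2 FPKM at day 2 and at 63.7, 61.6 and 59.8 at day 4. LT-HSC 2N alone lay inside the D range, and the other 5 N libraries were all above it. Bid fell by 1.62 ± 0.32 on the log2 scale (95% interval -2.34 to -0.908; adjusted p = 0.0145), in 5 of 6 pairs, with 0.0488 in LT-HSC at day 2 and -2.75 to -1.55 in the rest. Without the MP pair of day 2 the value was -1.52 (adjusted p = 0.0539). Leaving out the day 4 pairs of LT-HSC and MP gave -1.64 (adjusted p = 0.097), and ST-HSC alone gave -2.23 (adjusted p = 0.118). In uncultured cells Bid was at 15.7 FPKM in LT-HSC, 31.8 in ST-HSC and 122 in MP. N was higher than these by 1.92 ± 0.481 (adjusted p = 0.0357), in 6 of 6 differences, a call lost without LT-HSC (1.62, adjusted p = 0.112) or ST-HSC (1.54, adjusted p = 0.264). D did not pass against uncultured cells (0.29 ± 0.52, adjusted p = 0.721).

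The 3 remaining BH3-only genes did not separate D from N. Bad, which growth factor signalling holds inactive, was at 18.01 FPKM in LT-HSC, 39.2 in ST-HSC and 55.2 in MP before culture, at 56.7 to 93.7 in N and at 21.5 to 91.1 in D. Its values were -0.63 ± 0.316 for D minus N (adjusted p = 0.262) and 1.11 ± 0.365 for N minus uncultured (adjusted p = 0.0831), the latter above 0 in 6 of 6 differences. Bbc3, a p53 target, was at 8.32, 42.6 and 15.9 FPKM in uncultured LT-HSC, ST-HSC and MP. In N it was listed at 0 in ST-HSC 2N and reached 10.5 in LT-HSC 2N, and in D it ran from 0.922 to 17.2. The differences were 0.84 ± 0.615 for D minus N (adjusted p = 0.456) and -2.26 ± 0.779 for N minus uncultured (adjusted p = 0.0959). Pmaip1, another p53 target that chiefly opposes Mcl1, was low throughout, at 0 to 5.16 FPKM in N and 0 to 2.43 in D, with LT-HSC at 0 in all 4 cultured libraries. It reached 11.4 FPKM in uncultured MP. Its D minus N difference was -0.86 ± 0.469 (adjusted p = 0.304).

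**Figure D3:**
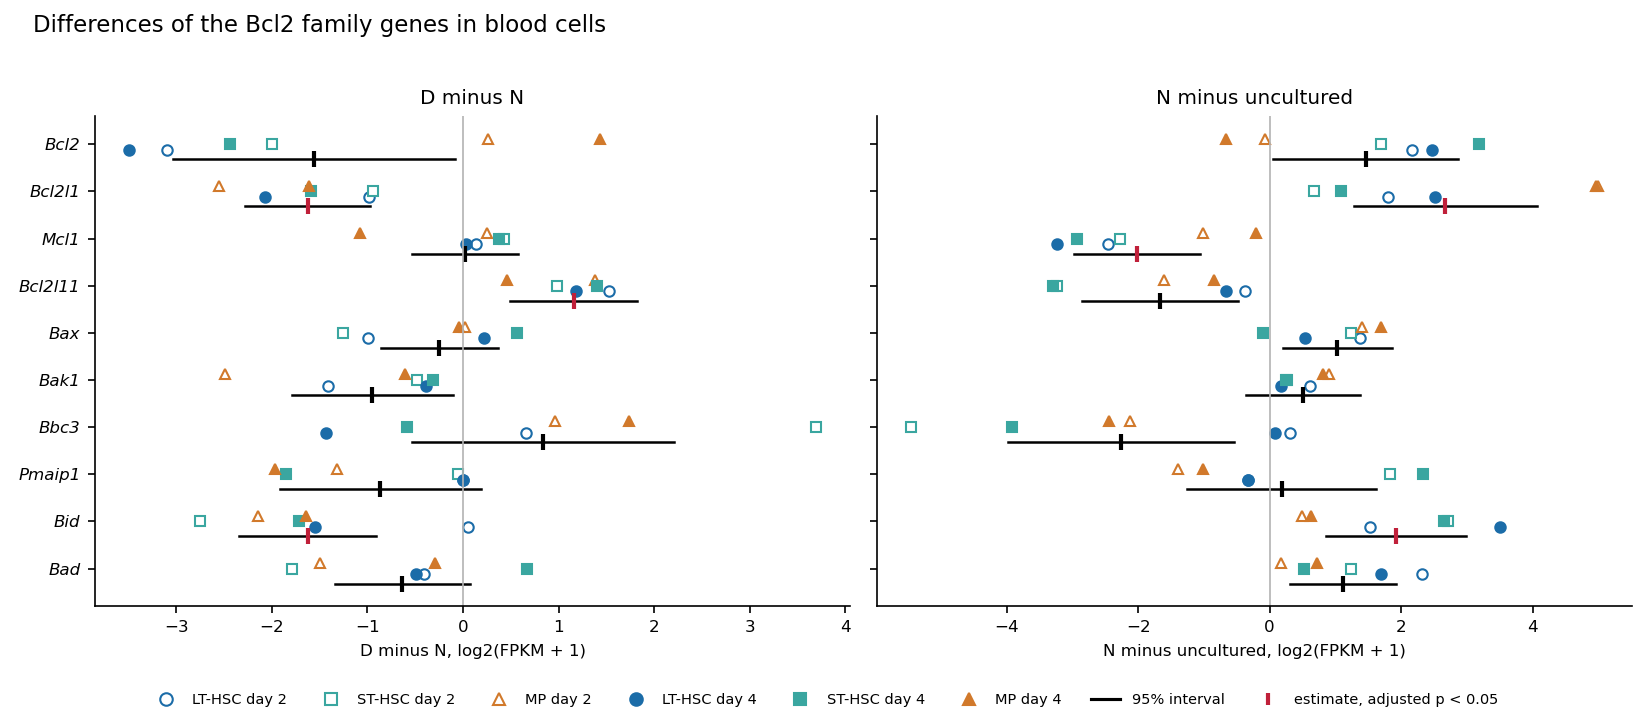
Differences on the log2(FPKM + 1) scale for each gene, D minus N on the left and N minus uncultured on the right. Points are the 6 differences by cell type and day (open at day 2, filled at day 4). Ticks are the limma estimates, lines their 95% intervals, and red marks an adjusted p under 0.05. On the right, both days of a cell type are set against the same uncultured library. Bcl2l1 and Bid lie below 0 on the left (-1.63 and -1.62) and above 0 on the right (2.67 and 1.92), and Bcl2l11 lies above 0 on the left (1.16).

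Counted over the family, N against uncultured cells had 2 of 10 members higher, against 5.8% of 12060 genes tested, and 1 lower, against 3.08%. At an unadjusted p under 0.05 there were 8, beside 27% of all genes. The median of the 10 was 0.77, beside 0.17 for all genes. D against uncultured cells had 0 members higher, against 9.16% of 12539 genes, and 1 lower, Mcl1, against 6.17%, with 2 at an unadjusted p under 0.05, beside 32.8% of all genes. Bcl2l1 and Bid were thus higher in N than in uncultured cells and lower in D than in N. These comparisons share libraries, so that pattern is not 2 independent results.

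Between cell types, MP was compared with the stem cells over 5 conditions. No member passed, higher (0.0402% of 12453 genes did) or lower (0.257%), and 3 were at an unadjusted p under 0.05, beside 13.6% of all genes. For Bcl2l1 the difference was -1.27 ± 0.438 (adjusted p = 0.232), below 0 in 5 of 5 conditions. It ran from -3.76 in uncultured cells, where MP is listed at 0, to -0.00595 at 2N, and without the uncultured libraries it was -0.644 (adjusted p = 0.388). For Pmaip1 it was 1.34 ± 0.572 (adjusted p = 0.336), above 0 in 5 of 5 conditions, and 0.801 without the uncultured libraries (adjusted p = 0.604). For Bax it was 0.72 ± 0.239 (adjusted p = 0.217), above 0 in 4 of 5. Between ST-HSC and LT-HSC, 9 members had enough signal to test, none passed, as did 0% of 12419 genes, and none was at an unadjusted p under 0.05 (6.53% of all genes were). The widest of these differences was that of Bcl2l11, 1.13 ± 0.521 (95% interval -0.0634 to 2.32; adjusted p = 0.772). Whether D minus N differed between days 2 and 4 was tested as well: 0 members and 0% of all genes passed, and no member was at an unadjusted p under 0.05 (4.17% of all genes were). For Bcl2l1 that change was -0.26 ± 0.616 (95% interval -1.66 to 1.13), for Bid -0.02 ± 0.676 (-1.56 to 1.51) and for Bcl2l11 -0.28 ± 0.626 (-1.70 to 1.14), intervals that leave room for sizeable changes.

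Fibroblasts, which support tissue and make matrix, had other proportions of these genes. Bax was at 143 FPKM uncultured and at 155 and 171 at 2D and 4D. Bak1 was at 81.4, 67.8 and 52.2 FPKM, above every blood library. Bid was at 10.8, 20.4 and 17.1. Bcl2l1 was at 35.0 FPKM uncultured and at 13.0 and 16.4 in D, log2 changes of -1.36 and -1.05. It was the 1 member of 10 changed by 2-fold or more at both days; 11.8% of 13313 genes were lower by that rule and 16% higher. With 1 library per condition there is no test. Bcl2l11 was at 6.37, 11.3 and 10.7 FPKM, and Mcl1 at 47.1, 65.6 and 56.2. Mcl1 thus started near its cultured level in blood cells. Set against the change of blood cells from uncultured to D, the fibroblast change passed the test for 0 of 10 members, beside 0.944% of 13235 genes. Mcl1 was the only member at an unadjusted p under 0.05 (12.7% of all genes were), with a difference of 2.36 ± 0.726 (95% interval 0.738 to 3.97; adjusted p = 0.193). For Bcl2l1 the difference was -2.25 ± 1.12 (95% interval -4.74 to 0.247; adjusted p = 0.443), a wide interval.

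**Figure D4:**
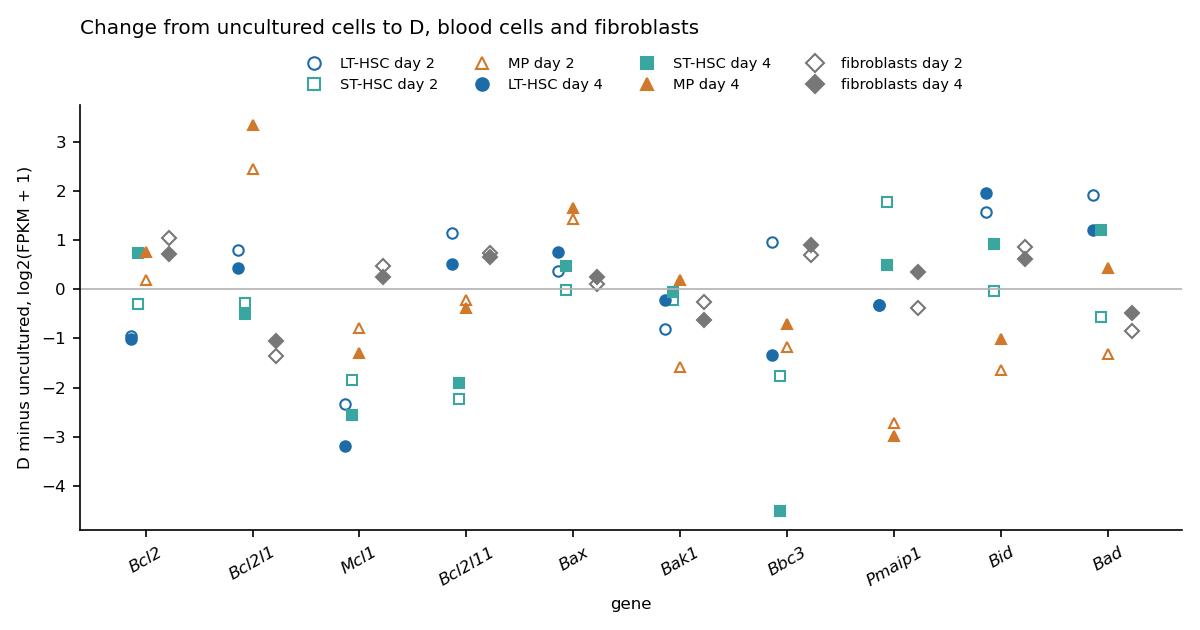
Change from uncultured to D for each gene on the log2(FPKM + 1) scale, in the 6 blood libraries and the 2 fibroblast libraries. In fibroblasts Bcl2l1 lies at -1.36 and -1.05 and Mcl1 at 0.468 and 0.249, while Mcl1 in the blood cells has a limma estimate of -1.997.

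Within a library, the leading member changed with condition. Mcl1 had the highest FPKM of the 10 in uncultured LT-HSC and ST-HSC, Bid in uncultured MP and in 5 of the 6 N libraries (Bad in LT-HSC 2N), and Bax in all 3 fibroblast libraries. In D, Mcl1 led in ST-HSC 2D, Bid in LT-HSC 4D, Bad in LT-HSC 2D and ST-HSC 4D, and Bax in MP 2D and MP 4D. Of the summed FPKM of the 5 BH3-only genes, Bid held 30.1% to 74.6% in N and 32.0% to 53.5% in D. Across the 15 blood libraries, which share the conditions above, Bid followed Bad (Pearson r = 0.646) and ran against Mcl1 (r = -0.606), given as a description. Of 12453 genes compared over these 15 libraries, those most like Bcl2l1 were Zfp652 (r = 0.8504), Krcc1 (0.821) and Vps18 (0.804). Most like Bid were Txlna (0.927), Elovl1 (0.9165) and Mlec (0.907), and most like Bcl2l11 were Ankrd50 (0.826), Kdm6b (0.822) and Pvrl2 (0.820).

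Genes that act upstream of the family were held in a list of 20 for survival signalling. In D 1 of 20 tested was higher, 6 were lower and 13 did not pass, with a median of -0.82. Over all genes 4.53% were higher and 4.44% lower, with a median of 0.02, and the same shares stand beside the lists that follow. The lists were chosen with earlier results of these data known, so a count above these shares is a description only. Pim1, a kinase that cytokines induce and that inactivates Bad, was at 13.9 to 60.7 FPKM in N and 1.64 to 9.73 in D (-2.50 ± 0.384, adjusted p = 0.00433). Csf3r, the receptor for the granulocyte growth factor, was at 3.75 to 21.8 FPKM in N and at most 1.18 in D (-3.42 ± 0.444, adjusted p = 0.00202). Csf2rb, the signalling chain of several cytokine receptors, was at 11.3 to 181 FPKM in N and at most 7.82 in D (-4.20 ± 0.72, adjusted p = 0.00749). All 3 were lower in 6 of 6 pairs. Foxo1, a forkhead factor held out of the nucleus by Akt, was the gene that was higher, at 0.369 to 4.78 FPKM in N and 6.37 to 86.4 in D (3.14 ± 0.475, adjusted p = 0.00412). Cytokine receptors also mark blood cells. Blood cell markers were low in 4 of the 6 D libraries as given above, and their part in these differences was not tested. Granulocyte-monocyte markers were lower in D in ST-HSC too. They summed to 5666 FPKM in 2N and 141.8 in 2D, and to 9710 in 4N and 59.6 in 4D. Kit, a receptor of the same list, was higher in D there. It was at 16.7 and 28.9 FPKM in ST-HSC 2N and 2D, and at 7.68 and 23.5 in 4N and 4D. In ST-HSC, where blood cell markers but not granulocyte-monocyte markers were kept, N and D values at day 2 were 21.3 and 0 FPKM for Csf3r. They were 35.9 and 7.82 for Csf2rb and 27.8 and 9.73 for Pim1. At day 4 they were 11.1 and 1.18, 65.15 and 7.71, and 32.5 and 7.61.

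Of the p53 gene and its targets, 15 of 17 were tested, 5 were higher in D and 0 lower, with a median of 0.39. Cdkn1a, the cell cycle inhibitor p21, was at 10.3 to 121 FPKM in N and 30.7 to 233 in D (1.52 ± 0.309, adjusted p = 0.0166). Before culture it was at 603 FPKM in LT-HSC, 910 in ST-HSC and 78.5 in MP. The D libraries of the stem cells, at 30.7 to 62.7 FPKM, were thus below the uncultured ones, and those of MP, at 217 and 233, above. Btg2, an antiproliferative gene, was at 5.51 to 14.2 FPKM in N and 10.6 to 176 in D (2.47 ± 0.479, adjusted p = 0.0135). Phlda3, an inhibitor of Akt, was at 3.03 to 25.7 and 5.24 to 156 FPKM (2.29 ± 0.448, adjusted p = 0.014), and Perp, a membrane protein, at 0 to 18.3 and 16.5 to 120 FPKM (2.83 ± 0.608, adjusted p = 0.0204). The family's own p53 targets did not pass, with Bbc3 at 0.84, Pmaip1 at -0.86 and Bax at -0.25. In N against uncultured cells, which shares the N libraries, the list had 0 of 14 higher (5.8% of all genes) and 4 lower (3.08%), among them Gadd45a (-3.09 ± 0.48, adjusted p = 0.0074), Btg2 (-2.72 ± 0.461, adjusted p = 0.0103) and Mdm2 (-1.90 ± 0.401, adjusted p = 0.0206).

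Downstream, of the 16 apoptosome and caspase genes, 0 were higher and 3 lower in D, with a median of -0.42. Casp8, the caspase that cuts Bid, was at 36.5 to 57.1 FPKM in N and 3.71 to 26.6 in D (-1.68 ± 0.395, adjusted p = 0.029). Casp4, an inflammatory caspase, was at 0 to 28.7 FPKM in N and at most 0.978 in D (-2.64 ± 0.555, adjusted p = 0.0188). Casp8 did not overlap between N and D, as 2.12% of all genes did not with D below N. Of the death receptors and adaptors, 8 of 11 were tested, 0 were higher and 2 lower: Tnfrsf1a (-1.44 ± 0.385, adjusted p = 0.0464) and Tnfrsf1b (-2.19 ± 0.555, adjusted p = 0.0381), both receptors of tumour necrosis factor.

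Among the other genes of the Bcl2 family, 12 of 20 were tested, and 1 was higher and 0 lower in D, with a median of 0.08. That gene was Bok, an effector related to Bax and Bak1, at 1.10 to 45.6 FPKM in N and 10.4 to 176 in D (2.52 ± 0.416, adjusted p = 0.00631), higher in 6 of 6 pairs. Bcl2a1a and Bcl2a1b, near-identical copies between which reads may not be assigned, and Hrk, Bik and Bcl2l10 were listed at 0 in all 18 libraries. No inhibitor of apoptosis passed (8 of 10 tested, 2 at an unadjusted p under 0.05), nor did any mitochondrial partner (16 of 17 tested, 3 at an unadjusted p under 0.05). In D versus N, 24% of all genes were at such a p. In N against uncultured cells, Birc5 (survivin) rose by 1.29 ± 0.27 (adjusted p = 0.0203), and Vdac2, a channel that holds Bak1 at mitochondria, by 1.01 ± 0.216 (adjusted p = 0.0216). Diablo, which opposes the inhibitors of apoptosis, rose by 1.35 ± 0.252 (adjusted p = 0.0145), and Casp4 fell by 3.13 ± 0.731 (adjusted p = 0.0276). The survival signalling list had 1 of 20 higher and 1 lower there, beside 5.8% and 3.08% of all genes. Its median was -0.76, beside 0.17 for all genes, and Csf2rb rose by 3.02 ± 0.401 (adjusted p = 0.00341). In D against uncultured cells that list had 0 of 20 higher and 7 lower, beside 9.16% and 6.17% of all genes, and the p53 list had 2 of 15 higher and 2 lower. The other 5 lists had at most 1 call in each direction in that comparison. No gene of these 7 lists passed in MP against the stem cells, where 0.0402% of all genes were higher and 0.257% lower. Most list calls rested on all libraries: without the day 4 pairs of LT-HSC and MP, the calls left among the D versus N genes named above were Btg2, Csf3r, Foxo1 and Pim1. The 20 survival signalling genes then had 1 higher and 3 lower, and in the ST-HSC pairs alone none of the 7 lists had a call. In N against uncultured cells without LT-HSC, Gadd45a and Csf2rb were the calls left.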

How the data were processed

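Per the submitters' processing notes, the authors aligned reads with TopHat and made expression values with Cufflinks on mouse build mm9; neither versions nor the annotation are given there. The deposited values are 1 FPKM per gene and library; the unit was read from the values, and 559 values above 0 lie below 1e-06, so no counts or depth could be recovered. From them log2(FPKM + 1) was computed, with 158 repeated symbols summed. Genes with a mean of at least 1 FPKM over a fit's libraries were tested with limma 3.58.1 (R 4.3.3; trend and robust options), two-sided, with Benjamini-Hochberg adjustment over all genes tested and a threshold of 0.05, in 8 fits. D versus N had each pair of cell type and day as a block (5 residual degrees of freedom); comparisons with uncultured cells had cell type, and cell type comparisons had condition. Descriptions and figures used Python 3.11.15, pandas 2.3.3, numpy 2.4.6 and matplotlib 3.10.9. The fits were tested on simulated data. RefSeq promoters and their coordinates are of GRCm38.p6 and were matched by symbol only.

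The 10 members and the 7 pathway lists (121 genes with the members, all found) were chosen with earlier results of these data known. All members were named; of each list, up to 4 genes past the threshold by smallest p in D versus N and up to 3 in N versus uncultured and in MP versus stem cells; the other comparisons name members only. Genes named outside this rule are the neural and other marker genes, Gapdh, Rpl3 and Sox2. A few list genes within the rule are not reported here. Of 66 cell type markers 64 were found. Alternatives were other pseudocounts, filters, scalings and limma options, and each block left out in turn; 2 that leave out further D versus N pairs were chosen after seeing the data.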

Additional observations from a re-analysis of the deposited data

Results flagged for a closer look

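Among 20 groups of 6 libraries (the 10 genes in N and in D), 2 held 1 library far from the others, its gap to the nearest passing Dixon's critical share of the group's range; chance gives about 1 in 20. Pmaip1 in D was highest in ST-HSC 2D, at 2.43 FPKM, with a gap of 0.634 of the range. Bid in N was lowest in LT-HSC 2N, at 47.0 FPKM, with a gap of 0.749 of the range.

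In 3 cases the groups moved in opposite directions in every difference. For Bcl2, D minus N was below 0 in the 4 stem cell pairs and above 0 in the 2 MP pairs, the mean of MP exceeding that of the stem cells by 3.60 on the log2 scale (limma interaction 3.61, adjusted p = 0.366). For Bcl2, N minus uncultured was above 0 in the stem cells and below 0 in MP, MP minus stem cells being -2.75; this difference was not tested. For Mcl1, the change from uncultured to D was above 0 in both fibroblast libraries and below 0 in all 6 blood libraries, a difference of 2.36 (limma interaction adjusted p = 0.193).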

How the results depend on the processing

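Depth is unknown, each condition is 1 library, and values near 0 depend on the value added before the log. In D versus N, 3 members passed, and 1 to 2 did with 1 pair left out, the lower count being without MP at day 2, where Bid missed the threshold (adjusted p = 0.0539). Of these calls Bcl2l1 held in all 6 such fits (adjusted p = 0.0125 to 0.0331), and Bcl2l11 in none. With no filter on low values Bcl2l11 missed the threshold (adjusted p = 0.051). With the day 4 pairs of LT-HSC and MP left out, 0 members passed, and 0 in the ST-HSC pairs alone; those fits have fewer libraries and called 394 and 26 of all genes, against 1099. Leaving out 1 pair called 529 to 1042. In N versus uncultured cells 3 members passed, 1 with no filter, 0 with limma without trend and robust options, and 0 to 3 with 1 cell type left out (0 without LT-HSC or ST-HSC). All genes called there were 1072, then 636, 420 and 52 to 1194. Bcl2l1 also missed the threshold there with 0.1 added (adjusted p = 0.0684). In D versus uncultured cells 1 member passed, and 0 to 1 with 1 cell type left out (0 without LT-HSC or ST-HSC; Mcl1 adjusted p = 0.0969 and 0.057), with 1922 genes called against 361 to 1207. In MP versus stem cells 37 genes were called, 12 with 5 added, 13 with no filter, 13 without trend and robust options, and 0 to 39 with 1 condition left out. In fibroblasts 1 member changed by 2-fold or more at both days, 2 with 0.1 added and 0 with 5 added. The cause of these changes was not tested, beyond the smaller fits.

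Values that changed sign were all of members that did not pass. With 5 added, these were Pmaip1 in N versus uncultured (-0.0506), Bcl2 in D versus uncultured (0.000922) and Bbc3 in MP versus stem cells (-0.111). With 1 block left out, Mcl1 in D versus N ran from -0.0582 to 0.243 and Pmaip1 in N versus uncultured from -0.768 to 0.877. In D versus uncultured the ranges were -0.381 to 0.350 for Bcl2, -1.19 to 0.265 for Bcl2l11, -0.443 to 1.10 for Bid and -0.0642 to 0.940 for Bad. In MP versus stem cells they were -1.01 to 0.0857 for Bcl2, -0.122 to 0.163 for Bcl2l11, -0.358 to 0.0579 for Bak1, -0.470 to 0.277 for Bbc3 and -0.170 to 0.331 for Bad. Quantile normalization moved the median of all genes from 0.173 to 0.0618 in N versus uncultured and from 0.232 to 0.129 in D versus uncultured; upper quartile scaling moved it from 0.0525 to -0.0885 in fibroblasts against blood. A filter at a mean of 5 FPKM left no value for Pmaip1 and, in D versus uncultured, for Bcl2. The labels give no replicate numbers, so no block by replicate was fitted; D and N were paired by cell type and day throughout.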
